A study of Mus musculus with 11 samples.

Results

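Dnmt3a1 and Dnmt3a2, the long and the short protein made from the Dnmt3a gene, were each put back into mouse embryonic stem (ES) cells that lack Dnmt1, Dnmt3a and Dnmt3b (the triple knockout, TKO), and the RNA of both kinds of cell was compared. The comparison uses 4 of the 11 libraries of the series: 2 of TKO+Dnmt3a1 and 2 of TKO+Dnmt3a2, taken by the genotype in their labels. The other libraries, 1 each, are wild type (WT), TKO, TKO+Dnmt3b1, the double knockout of Dnmt3a and Dnmt3b that keeps Dnmt1 (DKO), and DKO with each of the same 3 enzymes put back. All are J1 ES cells of strain 129S4/SvJae, cultured with serum and LIF over an irradiated layer of mouse embryonic fibroblasts, whose RNA can be in the sample. Polyadenylated RNA was sequenced. How each enzyme was put back, from which promoter, and how many clones stand behind a line are not given in the sources used here, so that isoform and clone cannot be told apart.

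The Dnmt3a gene encodes a de novo DNA methyltransferase, which places methyl groups on cytosines of CG pairs that carry none; Dnmt1 copies existing methylation after replication. Dnmt3a2 starts from an internal promoter and lacks the amino-terminal stretch of Dnmt3a1. It is the main Dnmt3a form of ES and germ cells, while Dnmt3a1 is made in most somatic tissues. DNA methylation of promoters holds germline and trophoblast genes silent in ES cells. Methylation of imprinting control regions sets which parental copy of an imprinted gene is expressed. No methylation was measured in the files analysed here.

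The start of each coding sequence shows how the isoforms differ (GENCODE vM21 transcripts, build GRCm38, start codon in capitals). The long form (NM_007872) has 2727 coding nucleotides and 908 codons before the stop. The short form (NM_153743) has 2070 coding nucleotides and 689 codons, and is identical to the end of the long one. The long form therefore carries 219 codons more. The last line gives the long form around the codon at which the short form begins, with 30 bases before it.
Dnmt3a1: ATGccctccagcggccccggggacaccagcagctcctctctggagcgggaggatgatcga
Dnmt3a2: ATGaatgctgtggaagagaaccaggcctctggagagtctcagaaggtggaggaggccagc
Dnmt3a1 at the internal start: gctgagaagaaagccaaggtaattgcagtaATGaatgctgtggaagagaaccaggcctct

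Values are RPKM, reads scaled to transcript length and library depth, as the authors deposited them, and differences are Dnmt3a1 minus Dnmt3a2 on the log2(RPKM + 0.5) scale, so that a difference of 1 is 2-fold at high levels and understates folds of low genes. Read depth, recovered from the spacing of the RPKM values, was 22.3 and 32.78 M reads (megareads) for TKO+Dnmt3a1 and 22.76 and 26.9 M reads for TKO+Dnmt3a2. All 25 naive pluripotency genes on the list used here were at 1 RPKM or more in every library, which fits the ES cell label. The libraries of a line were not closer to each other than to the other line. Pearson's r across genes, which are not independent replicates, was 0.983 within TKO+Dnmt3a1 and 0.974 within TKO+Dnmt3a2, and 0.968 to 0.987 between them. TKO+Dnmt3a2 replicate 1 stood apart by its 39 fibroblast markers, with a mean log2 level of 4.42 against 3.72 in replicate 2 and 3.85 and 3.59 in TKO+Dnmt3a1. TKO+Dnmt3a1 replicate 2 stood apart by 36 germline genes with methylated promoters, at a mean log2 level of 3.30 against 2.32 in replicate 1. The same library had chromosome 11 genes a median of 0.34 above their mean over all libraries, against -0.02 in replicate 1. List results are given below with those libraries in mind.

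Dnmt3a RNA itself was higher in the Dnmt3a1 line. It was 39.4 and 34.2 RPKM in TKO+Dnmt3a1 and 21.8 and 11.1 RPKM in TKO+Dnmt3a2, against 22.7 in WT and 4.24 in TKO. The libraries of the lines did not overlap, and the difference was 1.21 ± 0.32 (SE, n = 2 a line; limma, adjusted p = 0.903), which does not pass the threshold. Dnmt3b, the second de novo enzyme, is knocked out in these cells, so its row gives RNA of the knocked-out gene and not enzyme. This RNA was at 28.9 and 20.9 RPKM with Dnmt3a1 and 44.4 and 32.9 with Dnmt3a2. It was at 25.03 RPKM in WT and 45.3 in TKO. Dnmt3l, the catalytically inactive partner of the de novo enzymes, was at 275 and 338 RPKM against 391 and 416. It was at 96.96 RPKM in WT and 391 in TKO. Dnmt3b and Dnmt3l RNA were higher in each TKO+Dnmt3a2 library than in either TKO+Dnmt3a1 library. The means differed by 0.63 and 0.40 on the log2 scale. Dnmt1 RNA stayed low in both lines, at 7.27 to 9.80 RPKM against 71.0 in WT and 6.73 in TKO. Uhrf1, which guides Dnmt1 to newly replicated DNA, was at 107 to 137 RPKM in the 4 libraries, with a difference of -0.04. The Dnmt3a row counts over 1 gene length whichever isoform was put back, so that it compares RNA over the gene and not molecules of enzyme, and protein was not measured. Isoform and Dnmt3a RNA level differed together between these libraries and cannot be told apart in the results below.

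Across the genome 1 gene passed the test, Alg13. That is 0.00703% of the 14229 genes tested (limma, Benjamini-Hochberg adjusted p under 0.05), and 611 genes had an unadjusted p under 0.05. With 2 libraries a line a permutation test cannot give a two-sided p below 0.333, so genes were also described by size. In 4903 genes (34.5%) both libraries of one line lay above both of the other, 1659 of them (11.7%) higher and 3244 (22.8%) lower with Dnmt3a1. In 122 genes (0.857%) the means also differed by 1 or more; 50 (0.351%) were higher and 72 (0.506%) lower with Dnmt3a1, or 41.0% higher. This split turned with the scaling: 56.4% were higher after quantile normalization, 53.6% after median ratio scaling and 52.8% with chromosome medians removed. The median of all genes was -0.06 as deposited and 0.01 after median ratio scaling. As deposited, 5635 of the 14229 genes (39.6%) were higher and 8593 lower with Dnmt3a1 by the line means. Counts of higher and lower list members below are to be read against this share. Of the 122, 53 were genes named as microRNA, snoRNA or similar short RNAs, most of them at low values. They were set apart by name alone, which also took Mirg, a long host transcript, and Mir675, whose row shares the reads of H19. The other 69 (0.501% of 13766 genes) had 27 higher and 42 lower, and are called the large-difference genes here. Their choice rests on the 4 libraries themselves, so their values are a description.

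**Figure D1:**
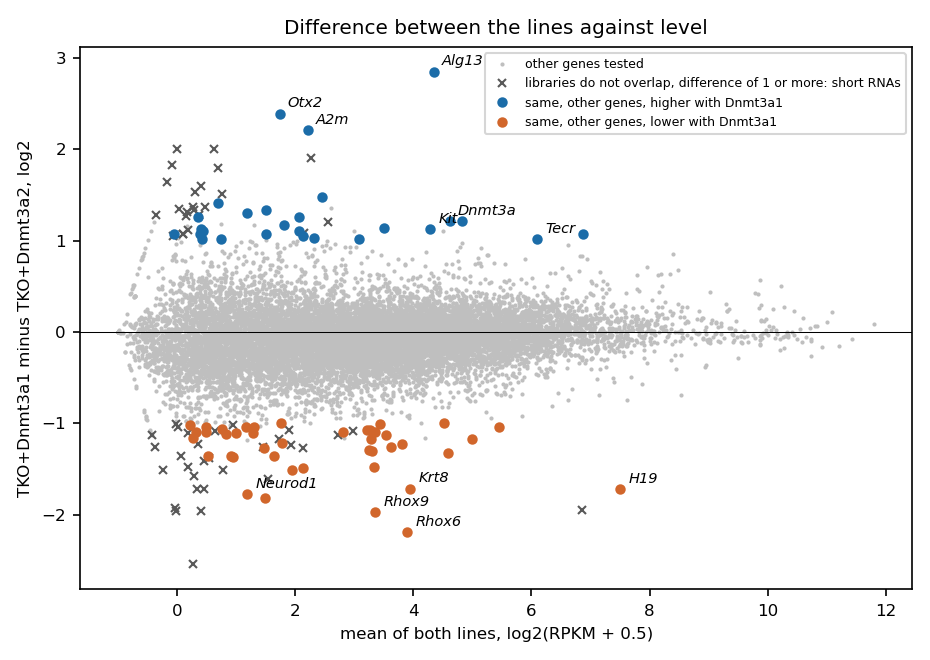
Difference between the lines (TKO+Dnmt3a1 minus TKO+Dnmt3a2, log2) against the mean level of both lines, log2(RPKM + 0.5), for each of the 14229 genes tested. Blue and orange points are the 27 and 42 large-difference genes, crosses are genes named as short RNAs with a difference of that size, and Alg13 lies highest at 2.85.

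Alg13, a subunit of the enzyme that adds the second sugar to the lipid-linked chain for protein N-glycosylation, lies on the X chromosome. It was at 59.5 and 49.0 RPKM in TKO+Dnmt3a1 and 6.74 and 7.42 RPKM in TKO+Dnmt3a2. WT was at 66.0 and TKO at 8.78 RPKM, so the Dnmt3a1 line lay near WT and the Dnmt3a2 line near TKO. The TKO+Dnmt3b1 library was at 47.3 RPKM. The ratio of the means was 7.67 and the difference 2.85 ± 0.16 (SE, n = 2 a line; limma, adjusted p = 0.0444). It was 2.71 to 2.99 when any of the 4 libraries was left out, where no gene was called. Over all alternatives its adjusted p ran from 0.00462 to 0.916, and it was past the threshold with a pseudocount of 1 but not of 0.1, nor after quantile normalization or median ratio scaling. In DKO cells all 4 libraries were at 71.1 RPKM or more, with 80.3 in DKO+Dnmt3a1 and 87.9 in DKO+Dnmt3a2.

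Otx2, a homeobox factor of the formative and primed epiblast, had the same pattern. It was at 7.06 and 7.14 RPKM with Dnmt3a1 and 0.950 and 0.954 RPKM with Dnmt3a2, against 7.60 in WT and 0.585 in TKO. The libraries within each line lay close together and the lines did not overlap, with a difference of 2.39 ± 0.19 (SE, n = 2 a line; limma, adjusted p = 0.120). TKO+Dnmt3b1 was at 1.74 RPKM. Both DKO add-backs were near WT, at 7.65 RPKM with Dnmt3a1 and 6.35 with Dnmt3a2.

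The RefSeq start regions of these genes (250 bases before to 50 after the start, build GRCm38.p6, CG pairs in capitals) are shown because they are the leading genes of the comparison and CG is the pair that the enzymes methylate. Alg13 (chrX:144317716-144318015, plus strand) holds 21 CG pairs and Otx2 (chr14:48662685-48662984, minus strand) holds 11. Of 10246 tested genes with such a region, 99.6% hold at least 1 CG, 50.9% hold as many as Alg13 or more and 80.1% as many as Otx2 or more. By this count neither start is rich in CG among the genes tested. The starts used lie 162 bases (Alg13) and 138 bases (Otx2) from the GENCODE starts of the same transcripts. The counts therefore depend on the start chosen. The count reads the same on both strands, and nothing was measured on the methylation of these bases.
Alg13: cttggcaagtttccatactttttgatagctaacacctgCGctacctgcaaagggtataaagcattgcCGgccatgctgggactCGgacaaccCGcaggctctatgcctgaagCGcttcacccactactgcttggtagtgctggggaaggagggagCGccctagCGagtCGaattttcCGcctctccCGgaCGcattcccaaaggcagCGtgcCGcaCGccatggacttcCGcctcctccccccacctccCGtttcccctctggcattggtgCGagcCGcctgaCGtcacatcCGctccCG
Otx2: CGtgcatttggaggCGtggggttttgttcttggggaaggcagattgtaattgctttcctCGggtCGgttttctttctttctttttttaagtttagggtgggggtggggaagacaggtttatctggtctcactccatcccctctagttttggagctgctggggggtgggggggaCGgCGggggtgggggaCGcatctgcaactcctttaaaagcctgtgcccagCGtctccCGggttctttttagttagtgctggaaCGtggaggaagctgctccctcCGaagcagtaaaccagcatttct

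Rhox6 and Rhox9, X-linked homeobox genes of placenta and germ line that lie in 1 cluster, had the largest differences in the other direction among the large-difference genes. Rhox6 was at 6.62 and 6.35 RPKM with Dnmt3a1 and 32.4 and 30.3 RPKM with Dnmt3a2, against 1.73 in WT and 17.0 in TKO. Its difference was -2.19 ± 0.17 (SE, n = 2 a line; limma, adjusted p = 0.120). Rhox9 was at 5.49 and 3.93 RPKM against 22.0 and 17.8, with 1.66 in WT and 12.8 in TKO (difference -1.98 ± 0.24, limma, adjusted p = 0.415). For both genes the Dnmt3a2 libraries lay above TKO and the Dnmt3a1 libraries between TKO and WT. Near-identical sequence within the cluster may let these genes share reads, so the split between them is uncertain. The X-linked germline list as a whole had no common direction. Of its 23 tested members, Rhox6 and Rhox9 among them, 10 were higher and 13 lower with Dnmt3a1, with a median of -0.09. Rhox6 and Rhox9 were its only large-difference genes. The mean log2 level of the list was 0.98 and 1.81 in TKO+Dnmt3a1 against 1.55 and 1.53 in TKO+Dnmt3a2. Replicate 1 of TKO+Dnmt3a1 thus lay below both TKO+Dnmt3a2 libraries and replicate 2 above them. Rhox1 was at 5.49 and 7.36 RPKM with Dnmt3a1 against 8.51 and 9.60.

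**Figure D2:**
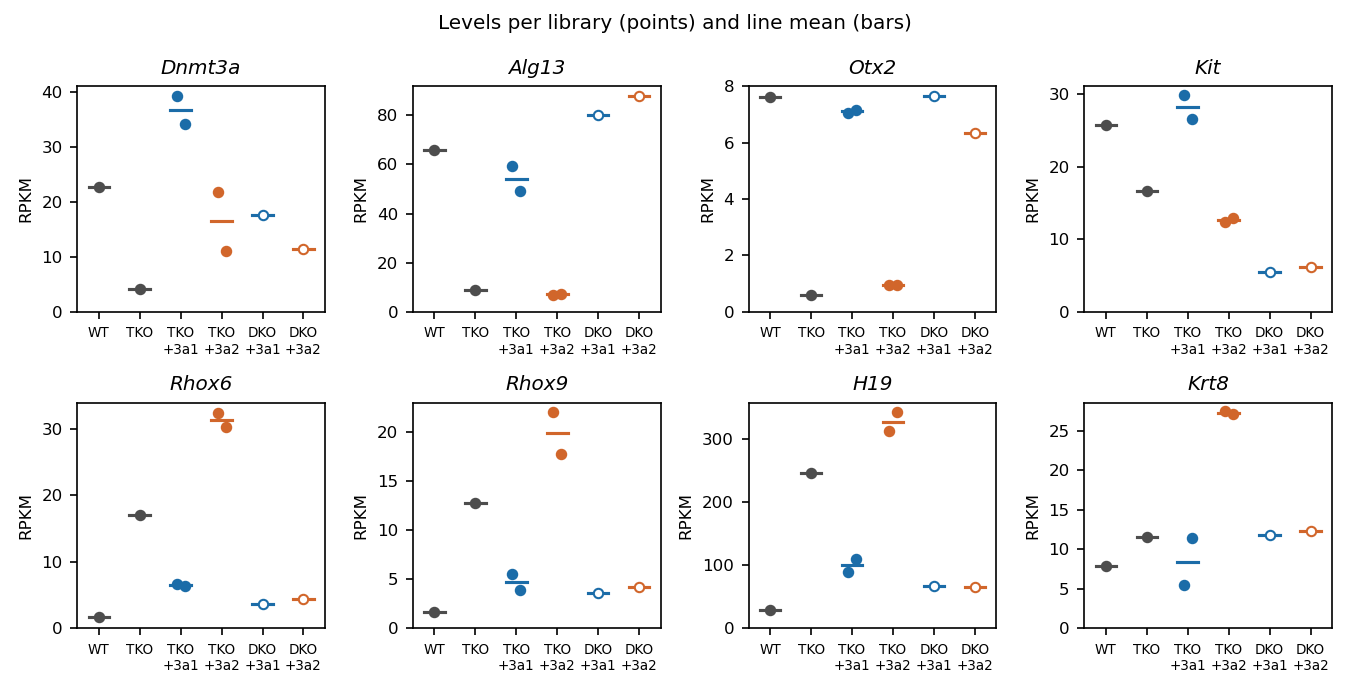
RPKM of 8 genes in each library (points) and the mean of each line (bars), with WT and TKO in grey, Dnmt3a1 lines in blue, Dnmt3a2 lines in orange and DKO libraries as open points. In TKO cells Alg13, Otx2 and Kit lay higher with Dnmt3a1, and Rhox6, Rhox9, H19 and Krt8 lay higher with Dnmt3a2; the open points of the DKO lines lie close together for these genes.

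H19, an imprinted non-coding RNA that is silenced on the paternal copy by methylation, was the most abundant large-difference gene. It was at 89.8 and 109 RPKM with Dnmt3a1 and 313 and 342 RPKM with Dnmt3a2, against 29.8 in WT, 246 in TKO and 391 in TKO+Dnmt3b1. The lines did not overlap, and H19 was 3.29-fold higher with Dnmt3a2 (difference -1.72 ± 0.17, SE, n = 2 a line; limma, adjusted p = 0.181). Mir675 lies within H19 and its row shares these reads (-1.95). Meg3, Rian and Mirg, maternally expressed non-coding RNAs of the Dlk1-Dio3 cluster, had the same order. Meg3 was at 34.6 and 22.8 RPKM with Dnmt3a1 against 47.2 and 62.7, and Rian at 32.9 and 26.2 against 46.3 and 46.1. Mirg, from the same cluster, was at 3.31 and 1.55 RPKM against 7.25 and 5.40. Peg3, a paternally expressed zinc finger gene, was at 36.0 and 24.4 RPKM against 53.7 and 39.8.

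Of 42 imprinted genes tested, 32 were lower and 10 higher with Dnmt3a1, and in 15 the libraries did not overlap with Dnmt3a1 lower, 4 with Dnmt3a1 higher. Of all genes 22.8% were lower and 11.7% higher in that way. The median was -0.23, against -0.06 for all genes tested. Their summed level was 1193 and 1143 RPKM with Dnmt3a1 and 1603 and 1523 with Dnmt3a2, with 1048 in WT and 1665 in TKO. H19 is in these sums, at 89.8 and 109 RPKM against 313 and 342, with 29.8 in WT and 246 in TKO. A large part of the difference between the sums is thus that of H19, and the sums do not stand for the list as a whole. Without TKO+Dnmt3a2 replicate 1 the median was -0.06 and 14 of 42 were higher with Dnmt3a1, where the median of all genes was -0.04, whereas H19 was high in both Dnmt3a2 libraries.

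The trophoblast list held the lowest median of the 23 lists, -0.66, led by simple-epithelium keratins. Krt8 was at 5.53 and 11.4 RPKM with Dnmt3a1 and 27.5 and 27.1 with Dnmt3a2, against 7.95 in WT and 11.6 in TKO. Its partner Krt18 was at 12.0 and 17.9 RPKM against 33.6 and 41.9, with 13 in WT. Krt7 was at 1.71 and 2.59 RPKM against 6.32 and 7.32. In each case both Dnmt3a2 libraries lay above TKO and WT as well, and none passed the test (differences of -1.72, -1.33 and -1.48; limma, adjusted p = 0.903 for each).

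The list also holds transcription factors on both sides, none past the test. Hand1, needed for giant cells, was at 3.89 and 9.49 RPKM against 12.6 and 14.3, and Gata2 at 1.08 and 1.23 against 3.01 and 2.27. Gata3 was at 0.976 and 0.785 RPKM with Dnmt3a1 against 2.52 and 1.29. Eomes and Tfap2c were the members higher with Dnmt3a1 without overlap, by 0.35 and 0.33. Of 19 members tested 16 were lower with Dnmt3a1, and 11 were lower without overlap against 2 higher, where 22.8% and 11.7% of all genes were. The median was -0.52 without TKO+Dnmt3a2 replicate 1 and ran from -0.72 to -0.48 over the 4 libraries left out in turn. In the DKO lines the median of the list was 0.15. Keratins 8 and 18 are made by other simple epithelia and by endoderm too; of 20 endoderm genes 11 were higher and 9 lower with Dnmt3a1, with a median of 0.02.

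**Figure D3:**
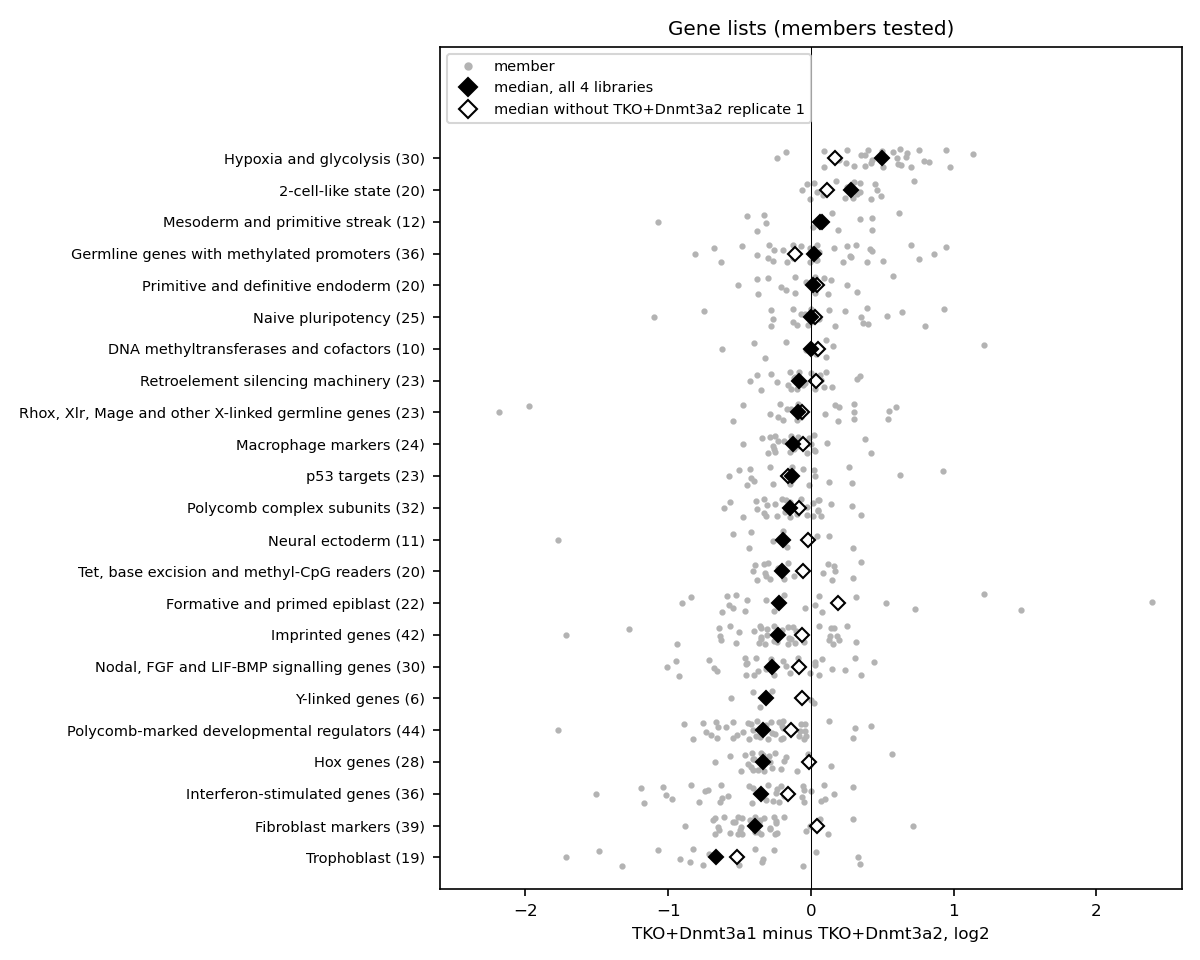
Differences between the lines (TKO+Dnmt3a1 minus TKO+Dnmt3a2, log2) for the tested members of each gene list (grey points), with the median over all 4 libraries (black diamonds) and without TKO+Dnmt3a2 replicate 1 (open diamonds). The trophoblast median stays at -0.52 without that library, while those of fibroblast markers and Hox genes move to 0.04 and -0.01.

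Epiblast genes had no common direction. Of 22 formative and primed epiblast genes 9 were higher and 13 lower with Dnmt3a1, with a median of -0.22 that became 0.19 without TKO+Dnmt3a2 replicate 1. Without overlap 6 were higher and 5 lower, where 11.7% and 22.8% of all genes were. The list includes Dnmt3a, the gene put back, and Dnmt3b, which is knocked out. Lef1, the nuclear partner of beta-catenin, was at 7.13 and 10.3 RPKM with Dnmt3a1 and 3.11 and 2.45 with Dnmt3a2, against 1.49 in WT and 2.12 in TKO. Both lines were above WT here, the Dnmt3a1 line more so. Fgf15 was at 3.30 and 3.36 RPKM against 1.83 and 1.8, with 8.66 in WT. Foxd3 and Pou3f1 lay the other way, at 3.67 and 2.68 against 7.82 and 5.05 RPKM and at 7.0 and 6.69 against 12.0 and 9.25 RPKM. Otx2 thus differed without a common direction of the epiblast list.

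Of 25 naive pluripotency genes 13 were higher and 12 lower, with a median of 0.00, but 10 were higher with Dnmt3a1 without overlap, against 3 lower (11.7% and 22.8% of all genes). Nanog was at 300 and 443 RPKM with Dnmt3a1 and 238 and 231 with Dnmt3a2, and Klf4 at 57.9 and 104 against 49.4 and 40.1. Prdm14, which restrains FGF signalling and Dnmt3b in ES cells, was at 8.20 and 10.8 RPKM against 5.67 and 3.89. Gbx2 lay the other way, at 7.0 and 5.93 RPKM against 22.3 and 9.24. None of these passed the test.

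Kit, the receptor of stem cell factor, was at 29.9 and 26.5 RPKM with Dnmt3a1 and 12.4 and 13 with Dnmt3a2, with 25.8 in WT and 16.6 in TKO (difference 1.12 ± 0.16; limma, adjusted p = 0.686). Id2, an inhibitor of bHLH factors and a target of BMP, was at 7.42 and 6.76 RPKM against 15.1 and 14.5, with 4.84 in WT and 14 in TKO. Dusp6 and Egr1, which respond to ERK signalling, were at 13.1 and 8.40 against 23.1 and 18.5 RPKM and at 14.3 and 10.5 against 22.3 and 17.9 RPKM. Of 30 Nodal, FGF and LIF-BMP signalling genes 21 were lower with Dnmt3a1 and 13 lower without overlap, against 2 higher (22.8% and 11.7% of all genes). Their median was -0.27, and -0.08 without TKO+Dnmt3a2 replicate 1.

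Among genes outside the lists that were higher with Dnmt3a1, A2m, a secreted protease inhibitor, was at 7.97 and 11.1 RPKM against 1.03 and 2.53, with 16.5 in WT and 5.05 in TKO. Tecr, the last enzyme of the cycle that lengthens very long fatty acids, was at 101 and 92.3 RPKM against 42.7 and 53.1, with 139 in WT and 121 in TKO. Elovl2, an elongase of the same cycle, was at 4.11 and 3.90 RPKM against 1.8 and 2.14. Padi4, a histone-citrullinating enzyme, was at 3.2 and 4.08 RPKM against 1.42 and 1.5, with 1.39 in WT. Foxn4, Cidea, Ly6k, Mab21l3 and Dnajb13 were also higher without overlap, by 0.94 to 1.41, at means of 2.23 to 7.69 RPKM in the Dnmt3a1 line. The rule for names also took Mir6902 and Mir7115 in this direction, both short RNAs.

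Among genes lower with Dnmt3a1, Dok2, an adaptor that damps tyrosine kinase signals, was at 5.44 and 6.15 RPKM against 14.2 and 15.8, with 1.67 in WT and 14.6 in TKO. Hes6, a Notch pathway bHLH factor, was at 12.1 and 11.5 RPKM against 23.3 and 24.8, with 12.9 in WT. Cbr3, a carbonyl reductase, was at 16.1 and 15.3 RPKM against 30.7 and 33.1, with 8.25 in WT and 13.4 in TKO. Neurod1, a neuronal bHLH factor, was at 1.15 and 0.409 RPKM against 3.83 and 3.55, with 4.39 in WT, so that here the Dnmt3a2 line lay nearer to WT. Dgkeos, an antisense neighbour of Dgke whose reads cannot be separated by strand, was at 0.576 and 0.821 RPKM against 2.6 and 2.57. Mir6913 and Mir6927 completed the names in this direction. Adjusted p was 0.686 to 0.903 for the genes of this paragraph (limma).

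Hypoxia and glycolysis genes were higher with Dnmt3a1 in 28 of 30 members, with a median of 0.50, and 13 were higher without overlap against 0 lower (11.7% and 22.8% of all genes). Pfkp, a phosphofructokinase of glycolysis, was at 116 and 158 RPKM with Dnmt3a1 and 56.2 and 87.2 with Dnmt3a2. Egln3, an oxygen-sensing hydroxylase that HIF induces, was at 39.2 and 51.3 against 18.2 and 38.1 RPKM. Ankrd37 was at 13.6 and 19.7 against 4.15 and 12.2 RPKM. The mean log2 level of the list was 6.46 and 6.76 with Dnmt3a1, 5.73 and 6.52 with Dnmt3a2, 6.62 in WT and 6.27 in TKO, so TKO+Dnmt3a2 replicate 1 was low and replicate 2 lay between the libraries of TKO+Dnmt3a1. Without it the median was 0.17 and 21 of 30 were higher. In the DKO lines the median was 0.04.

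Most Hox genes and other Polycomb-marked developmental regulators were lower with Dnmt3a1; the Hox difference came with TKO+Dnmt3a2 replicate 1, and that of the other regulators only in part. Of 28 Hox genes 26 were lower and of 44 other regulators 40 were lower, with medians of -0.34 and -0.33, and 10 and 24 were lower without overlap, where 22.8% of all genes were. The mean log2 level of the Hox list was 0.32 and 0.29 in TKO+Dnmt3a1 and 0.86 and 0.31 in TKO+Dnmt3a2. For the other regulators it was 0.52 and 0.49 against 1.05 and 0.66, so that both Dnmt3a2 libraries lay above both Dnmt3a1 libraries. Without TKO+Dnmt3a2 replicate 1 the Hox median was -0.01, with 14 of 28 higher, and that of the other regulators was -0.14, with 15 of 44 higher, against a median of all genes of -0.04. Fibroblast markers shared this form: 35 of 39 were lower with Dnmt3a1, with a median of -0.39 that was 0.04 without that library (23 of 39 higher). Their summed level was 1260 and 1048 RPKM with Dnmt3a1, and 1908 and 1129 with Dnmt3a2, and none of the 39 was at 0 in any of these libraries. Vim was at 343 and 287 RPKM against 519 and 271. The part of feeder RNA in the Hox and regulator values was not tested. In bulk RNA, fewer cells of a type and less RNA per cell cannot be told apart.

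Interferon-stimulated genes kept part of their difference without TKO+Dnmt3a2 replicate 1. Of 36, 30 were lower with Dnmt3a1, with a median of -0.35. It was -0.16 without that library, where the median of all genes was -0.04. Without overlap 12 were lower and 0 higher, where 22.8% and 11.7% of all genes were. The mean log2 level of the list was 2.21 and 2.05 with Dnmt3a1 against 2.86 and 2.26 with Dnmt3a2. Usp18 was at 2.33 and 1.35 RPKM with Dnmt3a1 and 13.4 and 2.55 with Dnmt3a2, and Isg15 at 14.5 and 9.60 against 52.9 and 13.8. For both genes 1 of the 2 Dnmt3a2 libraries held the difference. Macrophage markers were lower in 17 of 24, with a median of -0.13, where 8593 of all 14229 genes were lower. Their summed level was 89.9 and 68.3 RPKM against 89.6 and 93.2.

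The 2-cell-like and germline genes depended on TKO+Dnmt3a1 replicate 2. Of 20 genes of the 2-cell-like state, which rare ES cells enter, 17 were higher with Dnmt3a1, with a median of 0.28, but their mean log2 level was 0.37 and 1.36 in TKO+Dnmt3a1 against 0.48 and 0.73 in TKO+Dnmt3a2. The median was -0.20 without replicate 2 of TKO+Dnmt3a1 and 0.78 without replicate 1. Zscan4d was at 0.799 and 3.86 RPKM against 0.850 and 1.62. Of 36 germline genes with methylated promoters 19 were higher and 17 lower (median 0.02, and -0.50 without replicate 2 of TKO+Dnmt3a1). Stra8, which starts meiosis, was at 105 and 129 RPKM against 62.5 and 80.7, while Tex19.1, which guards germ cells against retrotransposons, was at 41.6 and 89.9 against 120 and 97.2.

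For genes of the methylation and silencing machinery, the median was 0.00 over 10 DNA methyltransferases and cofactors, -0.20 over 20 Tet, base excision and methyl-CpG reader genes, -0.08 over 23 retroelement silencing genes and -0.15 over 32 Polycomb subunits. It was -0.13 over 23 p53 targets, among which Pmaip1, a pro-apoptotic BH3 protein, was at 51.3 and 44.9 RPKM with Dnmt3a1 against 22.9 and 27.4. It was 0.08 over 12 mesoderm and primitive streak genes and -0.20 over 11 neural ectoderm genes. By chromosome the median ran from -0.14 (chromosome 6) to 0.02 (chromosome 11), so that no chromosome as a whole differed between the line means by more than 0.14. Single libraries differed more. Against the mean over all libraries, chromosome 11 lay at -0.02 and 0.34 in TKO+Dnmt3a1 and at 0.12 and 0.16 in TKO+Dnmt3a2. In the TKO library chromosomes 6, 8, 11, 12 and 16 lay at 0.40, 0.25, 0.29, 0.22 and 0.32. These offsets enter the comparisons with TKO for genes on those chromosomes.

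The large-difference genes were next set against WT, whose level does not enter the difference between the lines. The mean of the Dnmt3a1 line was nearer to the WT library than that of the Dnmt3a2 line in 59 of 69 genes (85.5%), against 62.1% of all genes tested. Among the 42 genes lower with Dnmt3a1 it was nearer in 40 (95.2%), with Neurod1 and Cep170b as exceptions. Among the 27 higher genes it was nearer in 19 (70.4%), with Lef1, Padi4, Mfge8, Aoc3 and Dnmt3a among the others. The share over all genes was not split by direction, so the shares of the lower and the higher genes have no background beside them. With any of the 4 libraries left out the share was 78.3% to 85.5%, and that of all genes 55.9% to 67.2%. The 69 genes were held fixed and had been chosen on all 4 libraries, so this range is no sign of stability. WT is 1 library, and this count has no test.

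**Figure D4:**
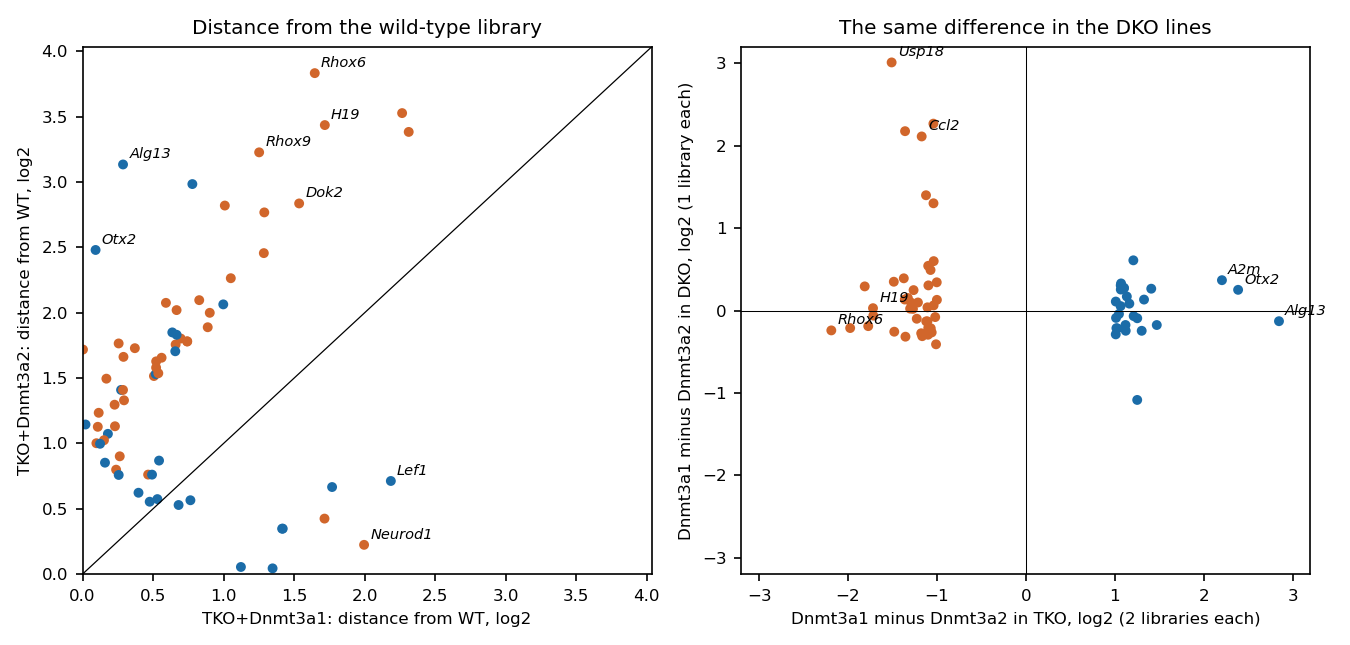
Left, distance of each line mean from the WT library for the 69 large-difference genes (log2; points above the diagonal are nearer to WT with Dnmt3a1; blue, higher with Dnmt3a1; orange, lower). Right, the same genes with their isoform difference in TKO cells (2 libraries each) against that in DKO cells (1 library each); most points lie near 0 on the DKO axis, Usp18, Ccl7, Ptx3, Ccl2, Cxcl1 and 9130008F23Rik lie more than 1 above it and Gm12238 more than 1 below.

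The DKO lines, which keep Dnmt1, gave a check of direction with 1 library each. Of the 69 genes 31 (44.9%) differed the same way in DKO+Dnmt3a1 against DKO+Dnmt3a2, against 43.6% of all genes, so the share was at the background. Of all genes 415 (2.92%) differed by 1 or more in DKO, 73 of them in the same direction as in TKO. Among the 69 there were 7 such genes, 0 of them in the same direction, and 7 genes are too few to set this apart from the share over all genes. Of the 7, Usp18, Ptx3, Ccl2, Ccl7 and Cxcl1 are genes that interferon or inflammatory signals induce, and each was lower with Dnmt3a1 in TKO and higher in DKO. In TKO the difference came mostly with TKO+Dnmt3a2 replicate 1: Ccl2 was at 22.0 and 19.6 RPKM with Dnmt3a1 against 88.5 and 25.2 with Dnmt3a2, and Ptx3 at 1.68 and 1.22 against 8.72 and 2.17. That library also had the highest fibroblast marker level of the TKO libraries compared (mean log2 4.42). In DKO that level was 3.78 with Dnmt3a1 and 2.07 with Dnmt3a2. The part of feeder RNA in the values of these genes was not tested. Alg13 differed by -0.13 ± 0.22 (SE) in DKO, Otx2 by 0.25 ± 0.27, Rhox6 by -0.24 ± 0.24 and H19 by 0.03 ± 0.23, where each lone library is assumed to vary like the replicated lines. In all of these the DKO add-backs were nearer to each other than the TKO lines were.

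The DKO arms have 1 library each and give no spread of their own, so the p-values below compare those libraries and not the genotypes. The difference between the TKO and the DKO contrast passed the threshold in 0 genes by limma (0% of 14229; 587 at an unadjusted p under 0.05, smallest adjusted p 0.0733). For Alg13 the contrasts differed by 2.98 ± 0.27 (adjusted p = 0.366). The smallest p belonged to Lyz2, a macrophage lysozyme, which was at 19.5 RPKM in DKO+Dnmt3a1 and 0.066 in DKO+Dnmt3a2, and was the 1 gene past the threshold between these DKO libraries (0.00703%; 387 at an unadjusted p under 0.05; adjusted p = 0.0288). Marker levels differed more between the DKO lines than between the TKO lines. All 39 fibroblast and all 24 macrophage markers were higher in DKO+Dnmt3a1, with medians of 1.68 and 0.64, and 8 macrophage markers were listed at 0 in DKO+Dnmt3a2. All 28 Hox genes were higher in DKO+Dnmt3a1 as well, by a median of 0.63, opposite in sign to the TKO lines. The part of feeder RNA in these values was not tested. The families also differed in Y-linked genes, whose 6 tested members summed to 1.52 to 4.13 RPKM in the 4 TKO libraries compared and 1.06 in WT, against 86.5 and 87.8 in the DKO add-backs.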

How the data were processed

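RNA of 11 libraries was sequenced after TruSeq v2 preparation, which keeps no strand. Per the submitters' processing notes, bcl2fastq 1.8.4 and STAR 2.4.0 were used with build mm9. The deposited values are RPKM made by the authors for 24016 genes. The counting tool, gene lengths and treatment of duplicates are not given in the sources used here. The table had 0 other columns of samples, and 3140 genes at 0 throughout.

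From these, log2(RPKM + 0.5) was fitted with limma 3.58.1 in R 4.3.3 (lmFit, eBayes with a trend) over all 11 libraries with 9 group means, for the 14229 genes that reached 1 RPKM in any library. The 2 residual degrees of freedom come from the 2 replicated lines alone, and the prior adds 3.70. Calls were made at a Benjamini-Hochberg adjusted p under 0.05. Nothing states that replicates are separate cultures, so p-values measure only the spread between these libraries, which may be technical. The fit was tested on simulated data. Depth came from transcripts of up to 400 nt, as the total at which values of up to 5 reads were whole within 0.05 (98.9% to 100% of values); it was not used in the tests. Replicate numbers are not stated to pair libraries, and same-numbered deviations correlated at 0.0859 over only 2 pairs.

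Named genes were the DNA methyltransferases and Uhrf1, called genes, then up to 15 a direction by the gap between non-overlapping libraries at 2 RPKM or more (without predicted or clone names such as Gm and Rik genes, 3830417A13Rik among them), members of the 23 lists with non-overlapping libraries and a difference of 1 or more, and the top feeder markers. Further list members and Mfge8, Aoc3, Cep170b, Ptx3, Ccl2, Ccl7 and Cxcl1, and in a caption Gm12238 and 9130008F23Rik, were named after their values were seen. The comparison and lists were chosen with earlier results of these data known. Chromosomes were taken from RefSeq (GRCm38.p6) by accession for 23875 genes. Alternatives covered pseudocount, scaling, filters, the model and each library left out.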

Additional observations from a re-analysis of the deposited data

How the results depend on the processing

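The count of called genes was 1 as reported and 0 with a pseudocount of 0.1, quantile normalization, median ratio scaling, no filter on low values, no trend, only the 4 libraries, or any library left out (0 to 0). It was 3 (Alg13, Otx2 and Rhox6) with chromosome medians removed and with a filter of 1 RPKM in at least 2 of the 4 libraries. The difference of Alg13 kept its sign throughout, at 2.71 to 2.99. Genes with non-overlapping libraries and a difference of 1 or more numbered 253 with a pseudocount of 0.1 and 68 with 1, against 122. Genes called for the difference between the TKO and DKO contrasts numbered 1 (Lyz2) with a pseudocount of 0.1, with chromosome medians removed, with the filter on 2 of 4 libraries and with robust eBayes, and 52 without a filter, nearly all short RNAs.

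With the replicate number as a block over the 4 libraries, 5 genes were called: Alg13, Mir675, Otx2, Rhox6 and Rhox9. The numbers are not known to pair libraries.

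Medians of lists moved most when 1 library was left out. They ran from -0.12 to 0.059 for methyltransferases and cofactors, -0.27 to -0.052 for Tet and methyl-CpG readers, -0.50 to 0.55 for germline genes, -0.20 to 0.78 for the 2-cell-like state, -0.030 to 0.10 for naive pluripotency, -0.54 to 0.19 for the epiblast list, and -0.28 to 0.15 for mesoderm. They ran from -0.72 to -0.48 for trophoblast, -0.31 to -0.064 for imprinted genes, -0.57 to -0.013 for Hox genes, -0.59 to 0.33 for X-linked germline genes, -0.18 to -0.029 for Polycomb subunits, and -0.17 to 0.038 for retroelement silencing. They ran from -0.79 to 0.040 for fibroblast markers, -0.42 to -0.063 for Y-linked genes and -0.49 to -0.083 for signalling genes. The naive pluripotency median was 0.054 after quantile normalization, 0.082 after median ratio scaling and 0.092 with chromosome medians removed. The last setting gave -0.051 for Polycomb subunits and -0.077 for Y-linked genes, whose median was -0.52 with a pseudocount of 0.1.

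Of single genes, the difference of Uhrf1 reversed to 0.042 with median ratio scaling and 0.039 with chromosome medians removed, and ran from -0.22 to 0.15 over libraries left out. Fn1 reversed to 0.073 and 0.11 under the same scalings and ran from -0.33 to 0.32. Over libraries left out Vim ran from -0.73 to 0.21, Lyz2 from -0.38 to 0.00027 and Laptm5 from -0.63 to 0.053. None of these was called between the TKO lines in any setting, and the cause of these shifts was not tested. The share of large-difference genes nearer to WT, for which alternatives were chosen after seeing the data, was 85.5% after quantile normalization and 88.4% after median ratio scaling. At the lowest depth, 22.3 M reads, 10 reads in a 2 kb transcript are 0.224 RPKM, so lower values rest on fewer reads and differences among them were not detectable.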
